A study of Mus musculus with 62 samples.

Results

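Cells low in both cell-cycle scores are the 9 libraries, of 62 single-cell libraries of a cultured mouse pancreatic carcinoma line, in which genes of mitosis and genes of S phase were both measured below the middle of the culture. Of the 62 libraries, 50 had spike-in (ERCC) RNA below 20% of all counts and were kept. Score A was the mean log2(CPM + 1) of Cenpe, Plk1, Cdc20, Ccnb1, Aurka and Nusap1, and score B was the same mean of Ccne2, Cdc6, Mcm5, Mcm6, Dtl and Uhrf1, where CPM scales each gene's count by the sum of all gene counts of that library. The 9 cells lay below the median of both scores, and they were set against the other 41 kept cells, of which 16 were below the median of score A only, 16 of score B only and 9 of neither.

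All libraries came from KPC1199-EGFP cells, a C57BL\6 line that expresses EGFP, grown as an untreated adherent culture at passage 9 in medium with fetal bovine serum and caught as single cells on a microfluidic chip. KPC is the usual name for a genetically engineered mouse model of pancreatic carcinoma, and the labels give no allele beyond EGFP expression. The wider study developed joint DNA and RNA profiling of single cells and used this line to form pancreatic tumours in mice. The culture is a single sample with no treated counterpart, and cells of 1 culture are not replicates of a condition, so the differences below are descriptions of these 50 cells and carry no test.

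A dividing cell copies its DNA in S phase and separates the copies in mitosis. E2F transcription factors switch on the genes of DNA replication late in G1, when cyclin-dependent kinases release them from the Rb family of pocket proteins. In resting and early G1 cells the DREAM complex, which joins an Rb family protein to E2F4, DP1 and the MuvB core, represses S phase genes through E2F sites and mitotic genes through CHR elements. When mitosis ends, the anaphase-promoting complex destroys the mitotic cyclins and kinases, and a daughter cell in early G1, or one that has left the cycle, carries little RNA of either gene group.

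Some promoters of the genes that chose the cells carry the letters of these elements, and 4 promoters are shown: Plk1 of score A, Cdc6 and Mcm6 of score B, and Top2a, which took no part in the choice and had the lowest difference of all genes. They run from 250 bases before to 50 bases after the annotated start, 5′ to 3′ in the direction of transcription, from RefSeq on GRCm38.p6. Capitals mark CHR letters (TTTGAA or TTCGAA) and E2F letters (TTTCCCGC, TTTGGCGC, TTCCCGCC or TTGGCGCC), searched on both strands, where the E2F strings can overlap each other.
Plk1 (chr7:122159185-122159484, plus strand): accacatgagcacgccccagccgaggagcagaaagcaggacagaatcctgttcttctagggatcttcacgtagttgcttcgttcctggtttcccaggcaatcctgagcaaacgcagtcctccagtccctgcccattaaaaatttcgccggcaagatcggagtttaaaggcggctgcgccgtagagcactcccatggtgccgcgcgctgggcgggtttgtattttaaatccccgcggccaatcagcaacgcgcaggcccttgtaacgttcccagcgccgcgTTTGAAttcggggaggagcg
Top2a (chr11:99024140-99024439, minus strand): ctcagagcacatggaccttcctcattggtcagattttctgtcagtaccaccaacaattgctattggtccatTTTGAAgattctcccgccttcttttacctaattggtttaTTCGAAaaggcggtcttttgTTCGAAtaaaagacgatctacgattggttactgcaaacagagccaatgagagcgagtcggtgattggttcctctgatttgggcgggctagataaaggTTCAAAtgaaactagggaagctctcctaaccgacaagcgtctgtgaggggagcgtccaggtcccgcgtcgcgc
Cdc6 (chr11:98907901-98908200, plus strand): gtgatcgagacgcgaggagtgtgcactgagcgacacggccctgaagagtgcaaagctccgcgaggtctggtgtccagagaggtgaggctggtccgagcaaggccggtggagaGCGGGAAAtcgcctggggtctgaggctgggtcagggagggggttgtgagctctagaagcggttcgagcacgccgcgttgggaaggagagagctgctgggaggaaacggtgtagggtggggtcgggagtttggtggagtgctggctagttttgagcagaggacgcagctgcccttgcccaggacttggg
Mcm6 (chr1:128359656-128359955, minus strand): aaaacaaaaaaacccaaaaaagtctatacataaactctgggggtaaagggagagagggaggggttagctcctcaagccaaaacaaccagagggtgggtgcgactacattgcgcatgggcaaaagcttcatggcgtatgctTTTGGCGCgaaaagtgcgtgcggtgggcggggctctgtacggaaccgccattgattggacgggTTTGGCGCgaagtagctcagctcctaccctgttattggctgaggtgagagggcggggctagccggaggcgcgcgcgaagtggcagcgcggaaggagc
Plk1, the Polo-like kinase of mitotic entry, has 1 CHR match, and Top2a, the topoisomerase that untangles chromosomes before they separate, has 4. Cdc6, which loads the replicative helicase onto origins, has 1 E2F match, and Mcm6, a subunit of that helicase, has 2. E2F letters were in 5 of the 5 score B promoters found and CHR letters in 3 of the 6 score A promoters, while those of Cenpe and Nusap1 had neither. Outside the scores, CHR letters were in 31 of 37 promoters (83.8%) of the G2 and mitosis list described below, against 14.3% of the promoters found for all tested genes and 19.4% of all 27025 promoters of this length. E2F letters were in 9 of 27 promoters (33.3%) of the S phase list, against 7.18% of those of all tested genes and 3.87% of all promoters. The genes counted below as lower in the 9 cells had 1889 promoters found. Of these, 17.7% had CHR letters and 10.9% had E2F letters. A match describes the letters and does not show that a factor binds there.

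Score A had its median at 6.58 log2(CPM + 1), with the nearest cells at 6.49 and 6.66, and score B at 5.57, with the nearest cells at 5.55 and 5.58. In the 9 cells score A was 0.64 at the lowest, 4.74 at the median and 6.44 at the highest, against 2.04, 7.28 and 9.71 in the other 41 cells. Score B was 0.03, 2.96 and 5.50 in the 9 cells, against 1.88, 6.04 and 7.52 in the other cells. These values chose the cells and support nothing. Across the 50 kept cells the scores had a Pearson r of 0.07 and a Spearman rho of -0.21, given as a description. The cells are named by their number in the sample titles. Cells 17 and 19 had the lowest values of score A, cells 17, 32 and 19 the lowest of score B, cell 29 was very low in score A and just under the median of score B, and cell 44 was just under that of score A.

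**Figure D1:**
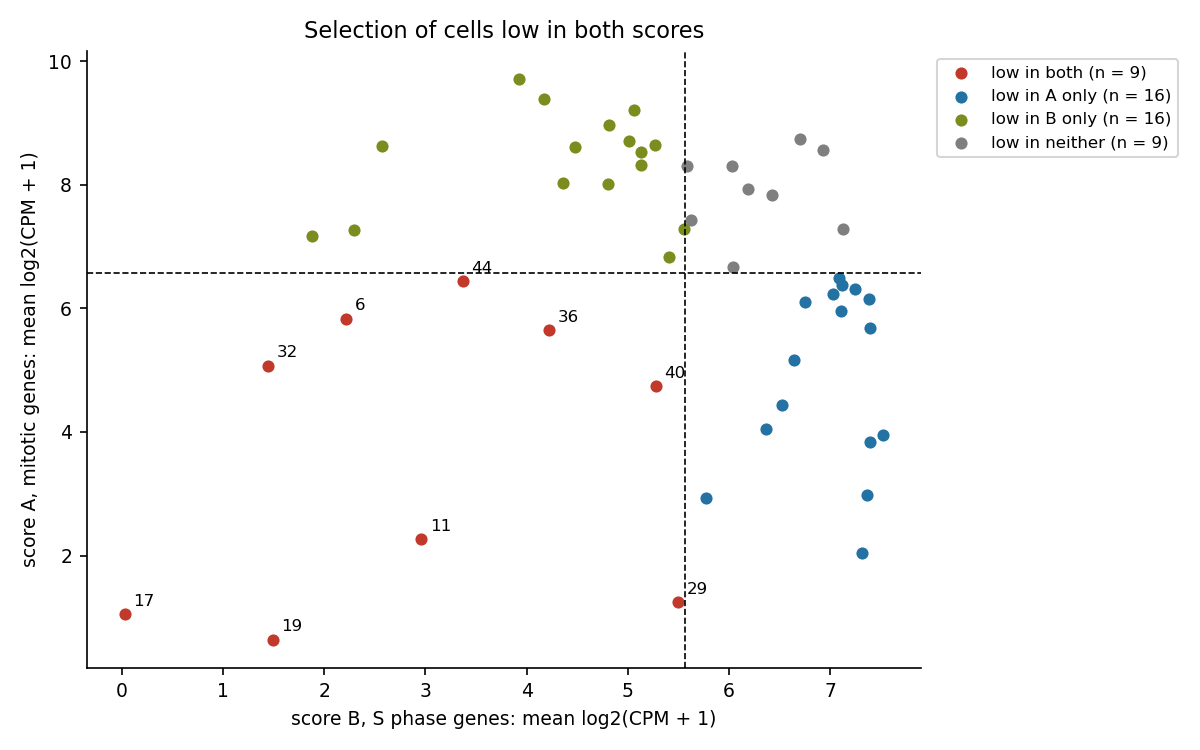
Score A (mitotic genes) against score B (S phase genes) for the 50 kept cells, both as mean log2(CPM + 1), with dashed lines at the medians of 6.58 and 5.57. The 9 numbered red cells lie below both lines, and cells 17, 19, 11 and 29 have score A of 2.27 or less.

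The 9 cells also yielded less RNA per spike-in count and fewer detected genes, and these values stand beside every gene result that follows. The log2 ratio of gene counts to spike-in counts was 5.90 at the lowest, 6.85 at the median and 7.59 at the highest in the 9 cells, against 5.74, 7.40 and 9.03 in the other cells. The means were 6.69 ± 0.59 (SD, 9 cells) and 7.43 ± 0.79 (SD, 41 cells), a difference of -0.75, or 1.68 times less. Cells low in score A only averaged 7.11, cells low in score B only 7.66 and cells low in neither 7.60, so the sets overlap widely and the 9 cells have the lowest mean. Genes above 0 numbered 6832, 8538 and 9933 in the 9 cells (lowest, median, highest), against 7407, 9044 and 11068 in the other cells, a difference of -506 between medians and of -946 between means (8210 in the 9 cells and 9156 in the other cells). Gene counts per cell ran from 2153900 to 10178600 in the 9 cells and from 2536570 to 12868800 in the other cells, and with every cell thinned to 2000000 counts the medians were 7897 and 8429 genes. The part of RNA yield in the gene differences was not tested.

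Differences below are the mean log2(CPM + 1) of the 9 cells minus that of the other 41, so a negative difference is lower in cells low in both scores, and a gene is counted as lower or higher at a difference of 1 or more. Of 12012 genes above 0 in at least 10 kept cells, 2420 (20.1%) were lower and 342 (2.85%) were higher, with a median difference of -0.23. No gene separated the 2 sets without overlap. Of the 2179 genes above 0 in all 50 cells, 104 were lower and 15 higher, with a median difference of -0.05, so most genes past the threshold are ones missing from some cells.

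Cell-cycle genes that took no part in the selection were lower nearly throughout. In the G2 and mitosis list, 41 of 45 genes were lower and none was higher, with a median difference of -2.63, where 20.1% of all tested genes were lower. In the S phase list, 30 of 34 genes were lower and none was higher, with a median difference of -2.32. All 34 genes of the S phase list and all 45 of the G2 and mitosis list had a difference below 0. Of these, Pttg1 and Ccnb2 lay above 0 when cell 19 was left out. Both lists are genes of the same cycle as the scores, measured in the same cells, so these counts describe how far the selection reaches and are not independent of it. The mean level over the G2 and mitosis list was 0.82, 4.33 and 6.26 in the 9 cells (lowest, median, highest), against 2.65, 6.49 and 8.17 in the other cells. Over the S phase list it was 1.59, 3.93 and 6.86 in the 9 cells, against 4.40, 6.48 and 7.36 in the other cells. Each range of the 9 cells reaches into that of the other cells, but 5 of the 9 (cells 6, 11, 17, 19 and 32) lay below every other cell in the S phase list. Cells low in only 1 score had a higher mean in the other list: cells low in score A only averaged 6.81 over the S phase list, and cells low in score B only averaged 7.29 over the G2 and mitosis list.

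**Figure D2:**
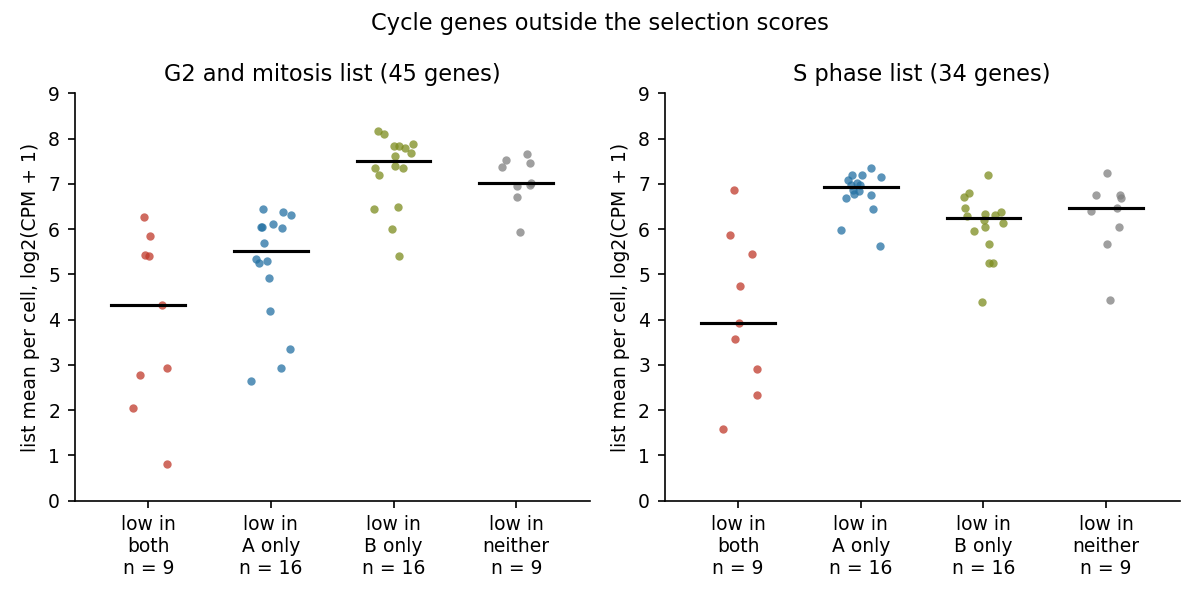
Mean log2(CPM + 1) per cell over 45 G2 and mitosis genes and 34 S phase genes outside the scores, with 1 point a cell and a bar at each set's median. The medians of cells low in both scores are 4.33 and 3.93, the lowest of the 4 sets in each panel.

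Among mitotic genes the lowest difference of all genes was that of Top2a, -5.41. Top2a was at 0 in 4 of the 9 cells, had a median level of 0.61 and reached 7.96 in cell 40, against a lowest level of 0.31, a median of 8.29 and a highest of 9.89 in the other cells. Its share of all gene counts pooled over cells was 29.9 CPM in the 9 cells (95% exact Poisson interval 28.6 to 31.2), against 300.2 CPM in the other cells (298.2 to 302.1), intervals that cover counting error only. Mki67, the proliferation antigen that coats mitotic chromosomes, ran from 0 to 7.996 with a median of 5.71 in the 9 cells, against 0 to 8.53 with a median of 7.01 in the other cells, a difference of -2.67. Cdk1, the kinase that drives mitosis, had a median of 6.31 in the 9 cells and 8.19 in the other cells and differed by -2.48 (Mki67 and Cdk1 were picked for mention after their values were seen). The G2 and mitosis genes that stayed short of the threshold were Cdkn3 at -0.97, Pttg1 at -0.65, Cdc25c at -0.50 and Ccnb2 at -0.35. Without cell 19 Pttg1 differed by 0.14 and Ccnb2 by 0.58. The medians of Cdc25c and Ccnb2 were 5.12 and 8.50 in the 9 cells, against 4.99 and 8.47 in the other cells. Hmgb2, a chromatin protein and the list's gene of highest level, was above 0 in all 50 cells and differed by -1.48, with medians of 9.20 in the 9 cells and 10.34 in the other cells.

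The genes with the lowest differences were taken from genes above 0 in at least 25 kept cells. After Top2a and the score gene Cdc6 (-5.10) came Cep55, needed for cutting the bridge between daughter cells (-4.78), and Shcbp1 of the midbody (-4.42). Next were the kinetochore subunit Spc25 (-4.37), the centriolar protein gene Odf2l (-4.19) and the condensin subunit Ncapg (-4.19). The spindle protein gene Nusap1 of score A (-4.11), the mitotic kinase Pbk (-4.03) and the augmin subunit Haus4 (-3.97) followed. Cep55 was at 0 in 6 of the 9 cells and reached 6.43, against detection in 39 of the 41 other cells at a median of 6.65. Odf2l was above 0 in 2 of the 9 cells and in 37 of the 41 other cells, and its highest level in the 9 cells was 1.84. Among cells with sample numbers 49 to 96, which hold 3 of the 9 cells, Pbk had a difference of 0.42 and Shcbp1 of -0.15.

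Among replication genes, Cdc6 of score B was above 0 in 1 of the 9 cells (cell 36, 2.61), against 37 of 41 other cells at a median of 5.62, values that the choice of cells by this gene helped to set. Clspn, the checkpoint adaptor of stalled replication forks, was at 0 in 6 of the 9 cells, had its highest level of 5.78 in cell 40, and had a median of 5.07 in the other cells (difference -3.74). Chaf1b, a subunit of the chaperone that puts histones on new DNA, ran from 0 to 7.69 with a median of 1.53 in the 9 cells, against 0 to 8.83 with a median of 6.95 in the other cells (difference -3.68). Other genes of the list lower by over 3 were Rpa2, Rrm2, Exo1, Hells, Gmnn, Cdc45 and Mcm2. In turn, their products bind single-stranded DNA, make nucleotides, trim DNA ends, remodel chromatin, restrain origin licensing and, for Cdc45 and Mcm2, unwind DNA. Pcna, the sliding clamp of the DNA polymerases and the list's gene of highest level, was detected in all 50 cells and missed the threshold at -0.98, with levels of 7.04, 8.45 and 9.77 in the 9 cells against 6.88, 9.68 and 10.89 in the other cells. Ung, Tyms and Dut also stayed short of it, at -0.79, -0.65 and -0.51. Mcm6 of score B had a difference of -1.44, and of -0.60 without cell 17, the 1 cell of the 9 where it was at 0. Its medians were 7.19 in the 9 cells and 8.27 in the other cells.

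The genes that control entry into the cycle split. Of 23 genes of G1 cyclins, their kinases, the Rb family and DREAM, 11 were lower and none was higher, with a median difference of -0.92, where 20.1% of all tested genes were lower and 2.85% higher. Rbl1, the pocket protein p107, had levels of 0, 1.98 and 3.49 in the 9 cells (lowest, median, highest), against 0, 5.74 and 7.16 in the other cells, a difference of -3.74. Every one of the 9 cells lay below the median of the other cells for Rbl1. Tfdp1, which encodes the DP1 partner of E2F, had levels of 0, 1.76 and 8.13 in the 9 cells, against 4.25, 7.52 and 8.33 in the other cells, a difference of -3.63. Tfdp1 was near or at 0 in cells 6, 17, 19 and 32, at 1.76 in cell 11 and within the range of the other cells in cells 29, 36, 40 and 44. The other lower genes were Skp2, which targets the inhibitor p27 for destruction (-2.76), the MuvB genes Lin52 (-2.40), Lin54 (-2.23) and Lin9 (-1.98), the phosphatase gene Cdc25a (-2.35), and Cdk2, E2f5, Rbl2 and Ccnd2 between -1.53 and -1.26. E2f5 differed by -0.92 without cell 6 and Ccnd2 by -0.49 without cell 29, and among sample numbers 49 to 96 Lin54, E2f5 and Ccnd2 differed by 0.53, 0.66 and 0.11. Ccnd1, cyclin D1, had levels of 5.0, 7.69 and 9.82 in the 9 cells, against 5.55, 7.60 and 9.24 in the other cells, a difference of 0.10 (a gene picked after its values were seen). Its kinase partners Cdk4 and Cdk6 differed by -0.58 and -0.18, and E2f4, the repressor E2F of DREAM, by -0.49. Over the whole list the 9 cells averaged 3.66, against 4.98 in cells low in score A only, 4.85 in cells low in score B only and 4.90 in cells low in neither.

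Inhibitors of cyclin-dependent kinases and genes linked with quiescence did not move together. Of 30 tested genes 5 were lower and 3 higher, with a median difference of 0.07, where 20.1% and 2.85% of all tested genes were lower and higher. The higher genes were Kdm5b, a demethylase of histone H3 (1.85), Gas2, first found in growth-arrested mouse fibroblasts (1.63), and Dyrk1a, the kinase that assembles DREAM by phosphorylating Lin52 (1.04, between 0.70 without cell 32 and 1.57 without cell 11). Gas2 differed by -1.18 in the 4 cells that lay at least 1 below both medians. Kdm5b had levels of 0.35, 5.48 and 7.94 in the 9 cells, against 0, 4.69 and 7.37 in the other cells, and was above 0 in 9 of the 9 and in 31 of the 41. The lower genes were Klf2 (-2.05), Foxo1 (-1.56), Cdkn2d (-1.42), Cdkn1a (-1.07) and Mxi1 (-1.06), of which Cdkn2d differed by -0.99 without cell 17 and Mxi1 by -0.56 without cell 36. Cdkn1a, which encodes p21, was above 0 in 3 of the 9 cells and in 24 of the 41 other cells, with medians of 0 and 3.30, and its difference was -0.89 without cell 17 and -1.64 without cell 19. Cdkn1b, which encodes p27, was above 0 in every kept cell, with levels of 0.86, 3.59 and 4.82 in the 9 cells against 0.17, 3.07 and 4.88 in the other cells, a difference of 0.63 that stayed short of the threshold. Among p53 targets 4 of 21 were lower and 1 higher (median difference -0.17): Gdf15, Pmaip1, Mdm2 and Trp53inp1 were lower and Ei24 was higher. Pmaip1 differed by -1.28, and by -0.94 without cell 17. Its mean CPM was 36.4 in the 9 cells and 36.8 in the other cells, nearly level by that measure. Mdm2, the ligase that degrades p53, differed by -1.27, by -0.84 without cell 17 and by 0.35 among sample numbers 49 to 96.

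Genes that make ribosomes were low in 3 of the 9 cells, while the ribosomal protein genes had level means over the 9 cells. These levels are shares of each cell's gene counts. Per spike-in count the 9 cells had 1.68 times fewer gene counts, so level shares do not show level RNA per cell. Of 20 genes of ribosome biogenesis and Myc targets, 8 were lower and none higher, with a median difference of -0.93, where 20.1% of all tested genes were lower and 2.85% higher. The list mean was 4.59, 3.98 and 4.28 in cells 11, 17 and 19, below the lowest of the other 41 cells, 5.35, and between 6.47 and 7.37 in the other 6 of the 9 cells, against a median of 6.90 in the other 41. Srm, the spermidine synthase, had levels of 0, 6.89 and 8.06 in the 9 cells, against 0, 7.50 and 9.48 in the other cells, a difference of -2.02. Polr1b, a subunit of the polymerase that transcribes ribosomal RNA, had levels of 0.83, 1.89 and 5.07 in the 9 cells, against 0, 4.56 and 6.71 in the other cells, a difference of -1.66. Mybbp1a, Nolc1, Cad, Dkc1, Fbl and Gnl3 were lower by between 1.63 and 1.04. In the same order, their mean CPM in the 9 cells was 0.81, 0.82, 0.60, 0.56, 0.85 and 0.78 times that in the other cells. Without cell 17 the differences of Nolc1, Dkc1 and Fbl were -0.84, -0.70 and -0.53, and without cell 11 that of Gnl3 was -0.32. Among sample numbers 49 to 96 Mybbp1a, Nolc1, Dkc1 and Gnl3 differed by 0.24, 0.39, 0.28 and 0.63. Of 82 ribosomal protein genes none was past the threshold in either direction, with a median difference of 0.02 and list means of 8.91 ± 0.28 (SD, 9 cells) and 8.91 ± 0.23 (SD, 41 cells). Of the 3 cells low in ribosome biogenesis, cell 11 had a ribosomal protein mean of 8.392, below the 8.407 of the lowest of the other 41 cells, and cells 17 and 19 had 8.56 and 9.10. The 72 nuclear genes of the respiratory chain had a median difference of 0.07, with 2 lower, Atp5sl and Uqcrc2, and Uqcrc2 at -0.25 without cell 19.

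**Figure D3:**
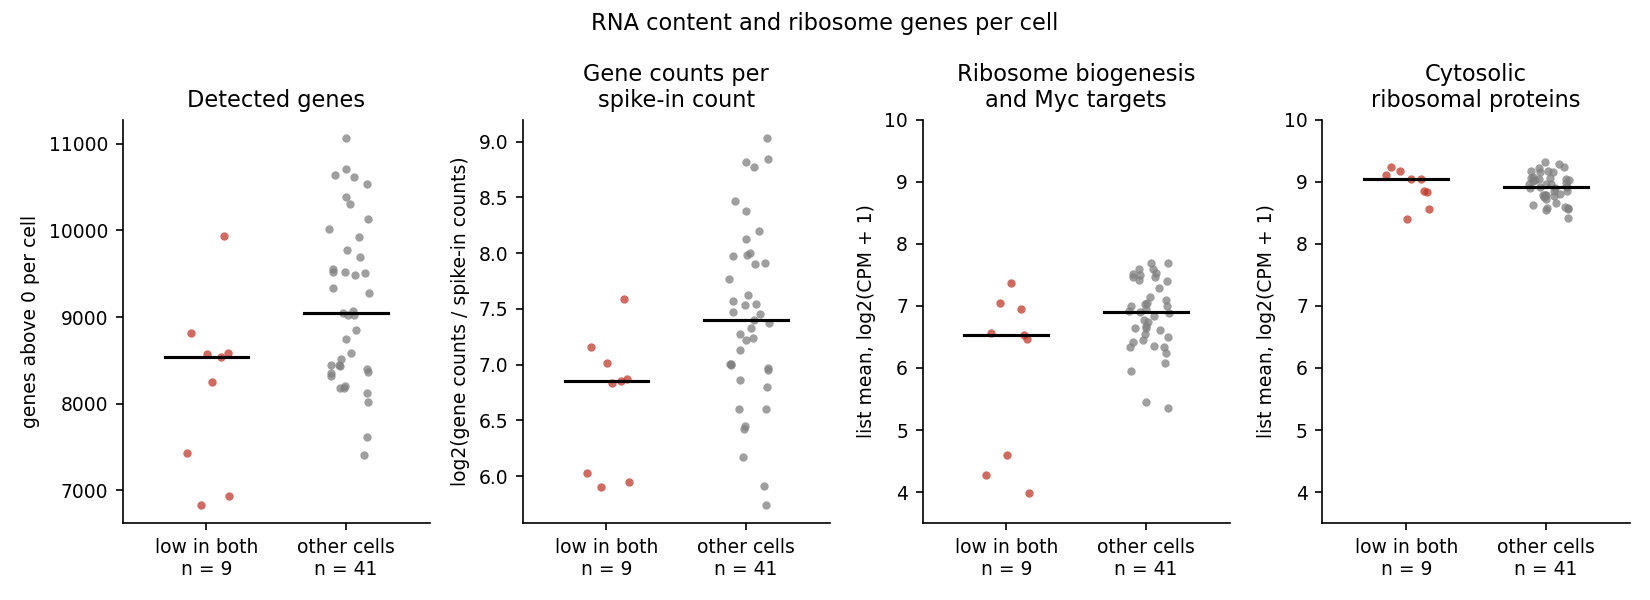
Genes above 0, log2 gene counts per spike-in count, and list means of ribosome biogenesis and of ribosomal protein genes per cell, for the 9 cells low in both scores (left) and the other 41 (right), with bars at the medians. The 3 lowest red points in the ribosome biogenesis panel lie at 4.59 or less, below all grey points, and the ribosomal protein panel shows level medians.

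The 12 genes of highest difference, again among genes above 0 in at least 25 kept cells, had differences from 2.63 to 2.05, and none of them is in a gene list used here. Each was detected in some of the other cells too. Parp9, an ADP-ribosyltransferase known from interferon responses, had levels of 0, 5.35 and 7.09 in the 9 cells, against 0, 1.44 and 5.99 in the other cells, a difference of 2.63. Slfn2, a Schlafen family gene needed to keep mouse T cells quiescent, had levels of 4.78, 7.10 and 8.34 in the 9 cells, against 0, 5.55 and 8.13 in the other cells, a difference of 2.56. It was above 0 in 9 of the 9 cells and in 35 of the 41. Ctgf, a secreted matrix protein gene and a standard target of YAP, had levels of 0, 5.81 and 9.00 in the 9 cells, against 0, 2.67 and 7.73 in the other cells, a difference of 2.42. Ctgf was highest in cells 11, 19, 17 and 32, at 9.00, 7.95, 7.60 and 7.33, and at 0 in cell 29. With cells chosen by the S phase and G2 and mitosis lists in place of the scores, its difference was -0.11. Slc16a3, the lactate exporter MCT4, had the same 4 cells highest, at 7.78, 6.997, 5.99 and 7.25, with a median of 4.53 in the 9 cells and 1.38 in the other cells, and differed by 2.08.

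The rest of the 12 were Cd99l2, a CD99-like surface protein gene (2.33), Sec16b of endoplasmic reticulum exit sites (2.29), the vesicle transport gene Rab8b (2.15), the proton pump subunit gene Atp6v0e2 (2.13), the ubiquitin ligase gene Rnf138 (2.07), the mitochondrial folate enzyme gene Mthfd1l (2.05) and the non-coding RNAs Gm11423 (2.60) and C730027H18Rik (2.12). Gm11423 is annotated as antisense, and another antisense RNA overlaps Slfn2; the library kit does not mark strand, so reads of overlapping partners cannot be told apart. When each cell was scaled by its spike-in counts in place of its gene counts, the median difference of all genes moved to -0.75, and these 12 genes kept differences from 2.02 to 1.37. Chosen by the outside lists, 13 cells (8 of them shared) were low in both, and the 12 genes then differed by between -0.11 and 1.32.

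**Figure D4:**
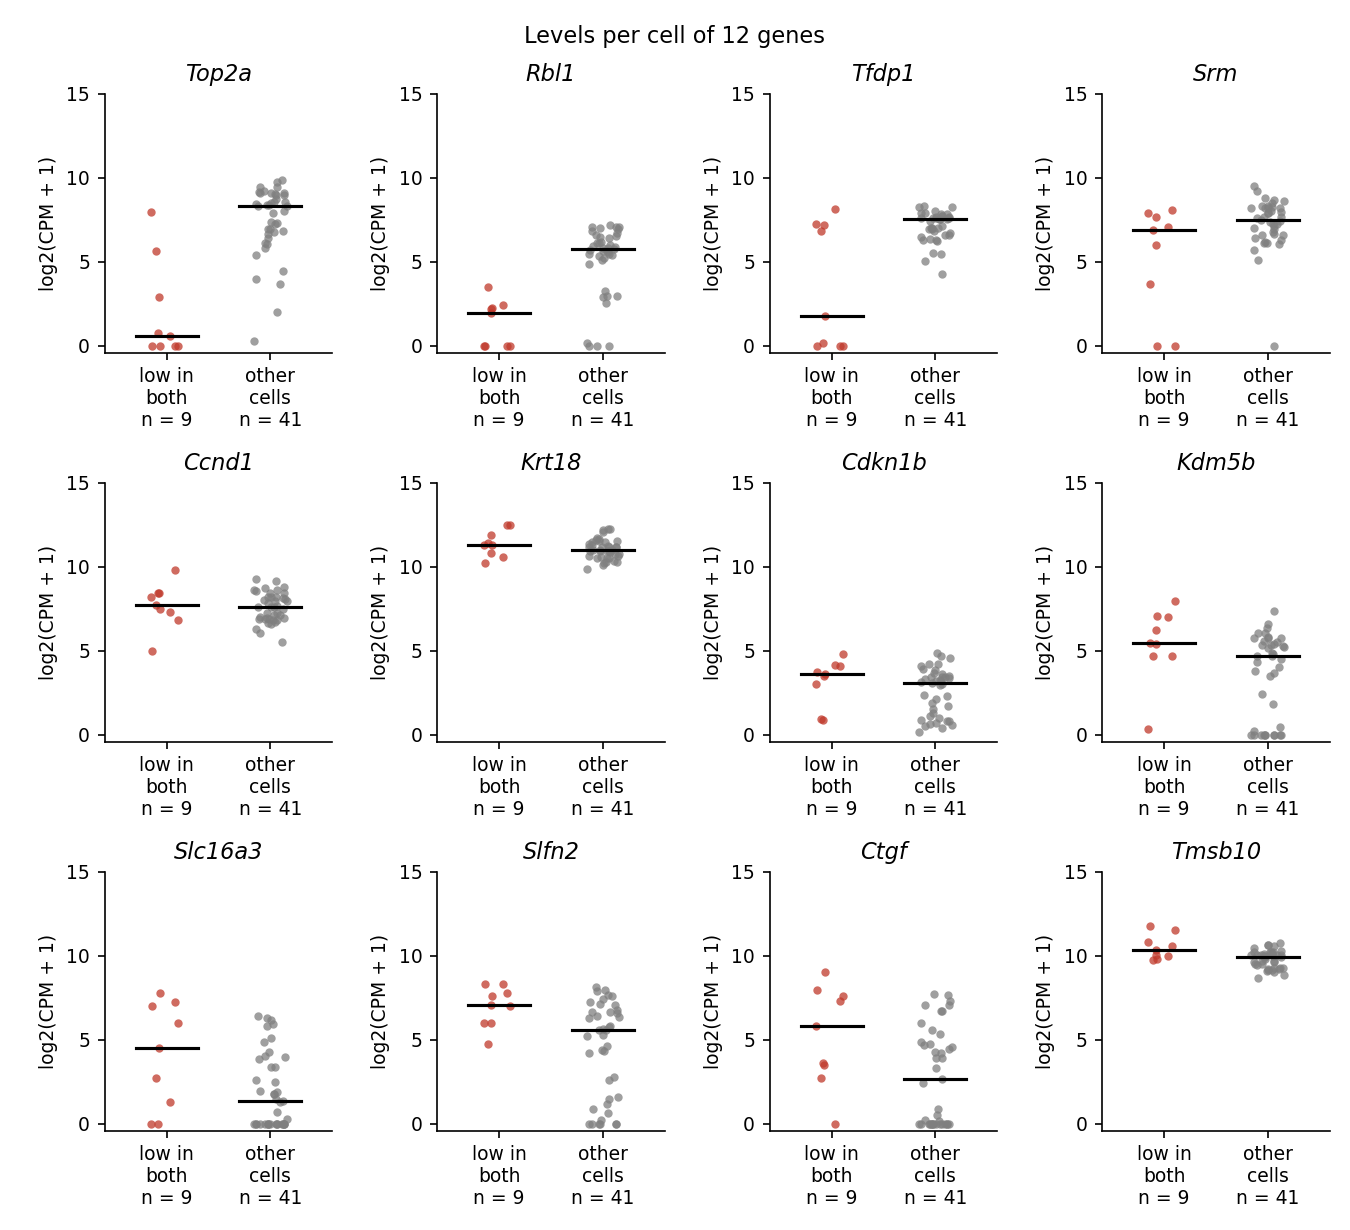
Levels per cell, log2(CPM + 1), of 12 genes in the 9 cells low in both scores (red, left) and the other 41 kept cells (grey, right), with bars at the medians. Top2a, Rbl1 and Tfdp1 have medians of 0.61, 1.98 and 1.76 in the 9 cells, Ccnd1 and Krt18 have similar medians in both sets, and Slc16a3, Slfn2, Ctgf and Kdm5b have higher medians in the 9 cells, with overlap in every panel.

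Outside the score genes and both cycle lists, the genes that followed the sum of the scores most closely were Tuba1b, Ncapg, Fam64a, Atad2 and Tubb5. Pearson r across the 50 cells, which share the scores' depth and RNA yield, was 0.82 for Tuba1b, 0.79 for Ncapg, Fam64a and Atad2 and 0.78 for Tubb5. Tuba1b, an alpha-tubulin gene, had levels of 6.80, 9.15 and 10.58 in the 9 cells, against 9.26, 10.64 and 11.39 in the other cells, a difference of -1.60. Its median in the 9 cells lay below the lowest of the other 41. Genes at both ends of this ranking were picked by their r with the scores that chose the cells. The pick therefore helped to set their differences, which are no independent result. The sum of the scores itself had a Pearson r of 0.61 with RNA yield and of 0.60 with the number of genes above 0. At the other end, St8sia1, Ccdc78, Gm11423, Cldn34c1 and Tmsb10 had r between -0.62 and -0.53, of which St8sia1, Ccdc78 and Cldn34c1 had medians under 1 in both sets. Tmsb10, an actin-binding thymosin gene, was above 0 in all 50 cells, with levels of 9.72, 10.31 and 11.74 in the 9 cells against 8.67, 9.93 and 10.76 in the other cells, a difference of 0.71, and of -0.03 with spike-in scaling.

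Epithelial markers of the line were present in all 9 cells. Krt18, a keratin of simple epithelia, had levels of 10.19, 11.30 and 12.48 in the 9 cells, against 9.85, 11.01 and 12.26 in the other cells. The 5 carcinoma markers Krt7, Krt8, Krt18, Krt19 and Cdh1 were above 0 in each of them and differed by between -0.12 and 0.63. None of 20 epithelial and duct genes was past the threshold, where 20.1% of all tested genes were lower and 2.85% higher. Their median difference was 0.38, against -0.23 over all tested genes. Spp1, the secreted protein osteopontin and the list's gene of highest level, differed by 0.72 with medians of 13.65 in the 9 cells and 13.34 in the other cells. Of the markers of other cell types, Cd3e, Lyz2, Adgre1, Dcn, Lum, Col1a2, Pecam1, Cdh5, Kdr, Cpa1 and Amy2a5 were at 0 in all 50 cells, and Ptprc and Cd68 were at 0 in the 9 cells, while other members of the same lists were detected. List means took only members above 0 in at least 10 kept cells. These were 3 of 8 immune, 2 of 8 fibroblast, 1 of 6 endothelial and 2 of 6 acinar genes. The immune mean, which rests on Cd14, ran from 1.40 to 2.81 in the 9 cells and from 0.28 to 3.94 in the other cells. The fibroblast mean ran from 0.092 to 1.09 in the 9 cells and from 0.16 to 3.45 in the other cells. The endothelial list, whose mean rests on Egfl7, ran from 0 to 5.43 in the 9 cells, with 5.43 in cell 17, 5.06 in cell 40 and 3.19 in cell 44, and from 0 to 7.76 in the other cells. The acinar list, whose mean rests on Prss2 and Cela1, was at 0 in 6 of the 9 cells and at 2.54, 2.04 and 5.56 in cells 36, 40 and 44, against 0 to 5.23 in the other cells. The part of these markers in the gene differences was not tested.

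The lists that follow had shares of lower genes under the 20.1% of all tested genes, so their counts are no result about the lists, and 2.85% of all tested genes were higher. Of 12 mesenchymal genes 2 were lower, Fn1 (-2.14) and Cdh2 (-1.54), and Itga5 was higher (1.26, and 0.82 without cell 6). Fn1, fibronectin, was at 0 in 5 of the 9 cells, and had a median of 5.39 in the other cells. Of 21 genes of glycolysis and hypoxia, Ndrg1 was higher (1.18, and 0.83 without cell 29) and Egln3 lower (-1.26, and -0.81 without cell 6), with a median difference of 0.26. Of 12 secreted factors linked with senescence only Plat was lower (-1.47, and -0.91 without cell 6) and none was higher. Immediate early genes had 2 of 19 lower, Atf3 (-1.08, and -0.45 without cell 19) and Jun (-1.05, between -1.71 without cell 17 and -0.85 without cell 6). The cholesterol synthesis list had 3 of 23 genes lower, among them Nsdhl (-1.42, and -0.76 without cell 6) and Dhcr7 (-1.31, and -0.89 without cell 6). The mean CPM of Dhcr7 was 39.8 both in the 9 cells and in the other cells. The lysosome list had 3 of 21 lower, among them Mcoln1 (-1.81) and Ctsa (-1.24, and -0.42 without cell 17). No gene of the amino acid and unfolded protein response list was past the threshold among 14. Of 40 clustered histone genes 5 were lower and 2 higher, beside 20.1% and 2.85% of all tested genes; these are near-identical copies that counting can split, and their mean level was 0.91 in the 9 cells and 1.13 in the other cells.

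**Figure D5:**
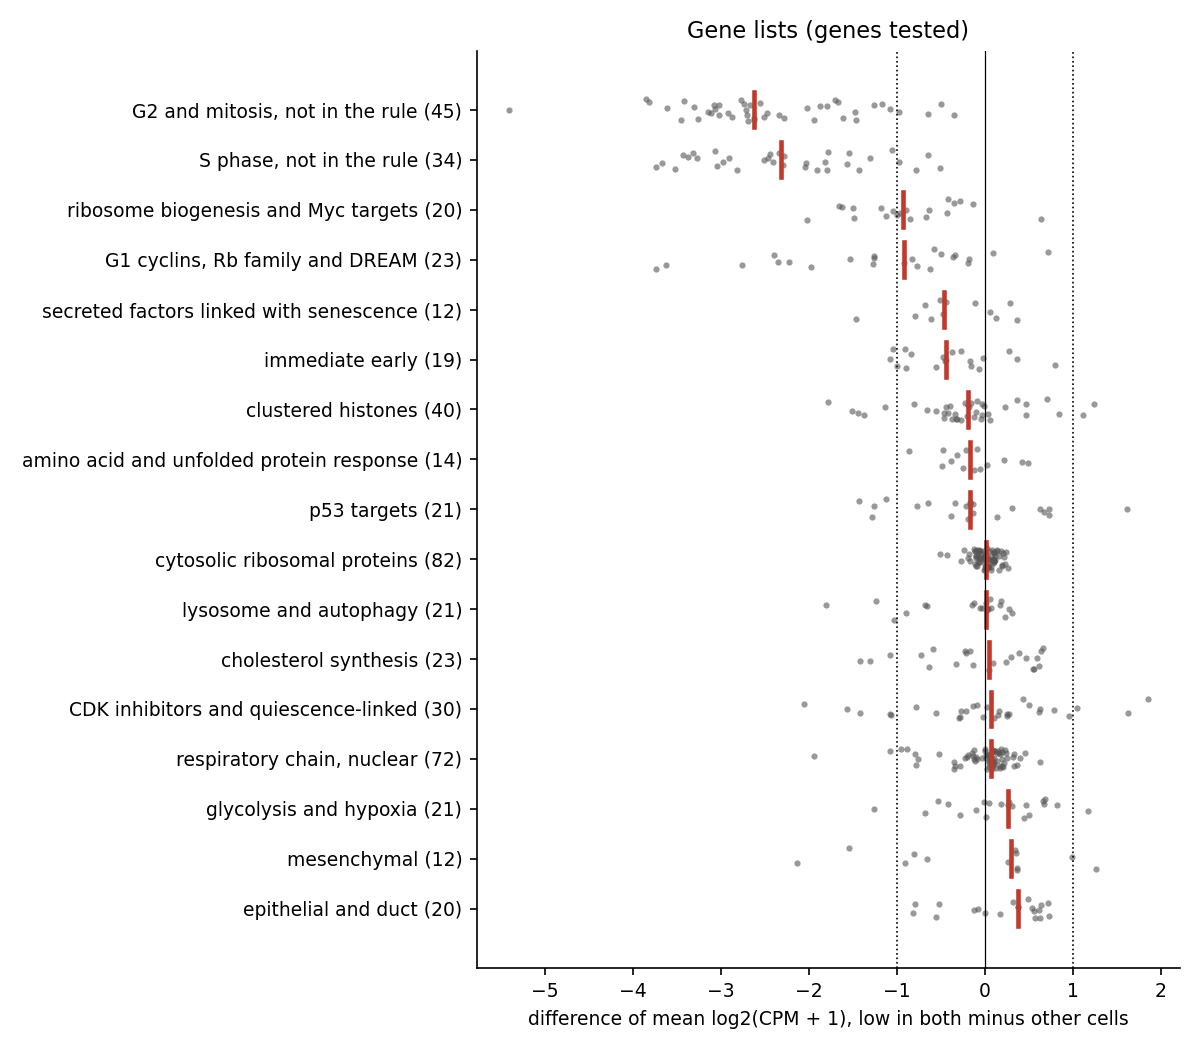
Differences of mean log2(CPM + 1), cells low in both scores minus the other kept cells, for each tested gene (grey points) of 17 lists, with red bars at list medians and dotted lines at the threshold of 1 in each direction. The G2 and mitosis and S phase lists have medians of -2.63 and -2.32, and the ribosome biogenesis and G1 lists of -0.93 and -0.92.

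The 9 cells were not alike. Cells 17, 19 and 11 were low in every cycle list: they had 18, 16 and 27 of the 45 G2 and mitosis genes above 0 and 12, 16 and 20 of the 34 S phase genes, against medians of 44 and 33 in the other 41 cells. They had 6935, 7436 and 8568 genes above 0 in all, and log2 gene counts per spike-in count of 5.94, 6.03 and 7.01. Cell 32 had 6832 genes above 0 and 36 of the 45 G2 and mitosis genes. The part of RNA yield in these counts was not tested. Cells 17, 19 and 11 were also the 3 with the low ribosome biogenesis means. Their glycolysis and hypoxia means of 8.003, 8.37 and 7.96 were above the 7.37 of the highest of the other 6. The other 41 cells ran from 5.95 to 8.28 in that mean, so only cell 19 lay above them. Cell 29 had a G2 and mitosis mean of 2.78 but an S phase mean of 5.88, with 30 of the 34 S phase genes above 0, and the highest ribosome biogenesis mean of the 9, 7.37. Cells 6 and 32 showed the reverse: S phase means of 3.93 and 3.58 with G2 and mitosis means of 5.41 and 5.43. Cells 36, 40 and 44 had all 6 score A genes and 5 of the 6 score B genes above 0, and list means of 4.33 to 6.26 for G2 and mitosis and 4.75 to 6.86 for S phase, values that other kept cells also had. These last 3 cells are also the 3 with sample numbers of 49 or more in the labels' description field; within that range the S phase list median was -0.56 and the G2 and mitosis median -0.81, and within numbers 1 to 48 they were -3.06 and -3.53. With only the 4 cells that lay at least 1 below both medians, the medians were -3.95 and -3.90.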

How the data were processed

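The measured cells were caught on a Fluidigm C1 chip and libraries were made with a Nextera XT kit, per the labels' protocols. The authors deposited estimated counts per gene and cell, made with kallisto against mm9 per the submitters' processing notes; 66.3% of values above 0 were whole within 1e-06, and the estimates were used unrounded except for thinning. The table has 19177 rows, of which 65 are spike-ins and 19112 genes; 1092 symbols altered in the table were restored and 79 stayed unmatched. Counts were scaled to CPM over gene rows and given as log2(CPM + 1). Kept cells had 0.190 to 1.83% spike-in counts, and the 12 libraries left out had 22.3 to 97.2%. Differences of means were computed with Python 3.11.15, numpy 2.4.6 and pandas 2.3.3, tested on simulated data. The simulated cells had no added loss of transcripts, so that check does not cover differences set by transcripts missed in some cells. A pseudocount of 1 understates changes of low genes.

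The 9 cells and all gene lists were chosen with earlier results of these data known. Named genes were the score genes, the 12 highest and 12 lowest differences, the highest level and the 2 largest differences of each list, and the 5 highest and 5 lowest correlations with the sum of scores; any other gene of a list named in the text was picked after its values were seen, mostly for passing or missing the threshold. A few genes that the rule names are not reported here. Ccne2 had no promoter in the table used. Alternatives tried were other pseudocounts, filters, scalings, thinning, cell choices and ranges of sample numbers, and leaving out each of the 9 cells. Doublets were not called, and no test was run because all libraries come from 1 culture.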

Additional observations from a re-analysis of the deposited data

Results flagged for a closer look

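Within the 9 cells low in both scores, 164 quantities were screened for a cell far from the other 8. The limit of 0.493 for the gap over the range was passed by 21. Its nominal rate of about 1 in 20 is for independent normal values. These quantities share cells and genes, and many hold zeros, so the 21 cannot be set against that rate. Values are levels in log2(CPM + 1) unless said otherwise. Cells at 0 where the others were detected were cell 17 for Mcm6 (0, next 7.04), Rnf138 (0, next 5.53) and Ctsa (0, next 5.74), and cell 19 for Herpud1 (0, next 6.55), Uqcrc2 (0, next 5.56) and Ccnb2 (0, next 6.60). Low outlying cells were cell 11 for Cd99l2 at 1.09, cell 19 for Klf6 at 2.92, cell 19 for Pttg1 at 0.83, cell 40 for Kdm5b at 0.35 and cell 17 for Bax at 4.84 and Dkc1 at 2.53. High outlying cells were cell 36 for Cdc6 at 2.61, cell 40 for Hist1h2ao at 9.21 and for Cdc25a at 2.49, cell 6 for Lin52 at 5.27, cell 11 for Klf2 at 5.02, cell 29 for Gdf15 at 4.99 and cell 17 for Ccdc78 at 3.77. Cell 11 also stood apart in the mean of the tested fibroblast markers, at 1.09 (next 0.47), and cell 44 in that of the tested acinar markers, at 5.56 (next 2.54).

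Among the 12 libraries left out for their spike-in share, 2 had at least 5000 genes above 0. Library 43 had 71.1% spike-in counts, 9041 genes above 0, score A of 7.94 and score B of 5.86, both above the medians of the kept cells. Library 56 had 22.3% spike-in counts, 5966 genes, score A of 0 and score B of 0.47, and would have joined the cells low in both scores under a limit on detected genes.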

How the results depend on the processing

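The S phase and G2 and mitosis medians and the RNA difference stayed below 0 under all alternatives run. Against 2420 lower and 342 higher genes, counts were 3927 and 712 with a pseudocount of 0.1, 492 and 46 with 10, and 4527 and 91 with spike-in scaling; with the 4 cells at least 1 below both medians (an alternative added after seeing the data) they were 4074 and 908, and the difference in median detected genes was -1858.5, against -506. Higher genes alone passed 1.5 times with a log2 ratio of mean CPM (674), the lower 40% of both scores (573), scores from the outside lists (221), sample numbers 1 to 48 (596) and 49 to 96 (1454), without the 25% of cells with fewest genes (811) and with other cells limited to the 9 cells' range of detected genes (521, also added after seeing the data). Within numbers 49 to 96 the S phase median was -0.56 and detected genes differed by 21. Of 97 named genes past the threshold, 66 stayed past it by the log2 ratio of mean CPM.

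Leaving out each of the 9 cells gave 2234 to 2766 lower genes, 352 to 453 higher genes, S phase medians of -2.73 to -1.90, G2 and mitosis medians of -2.95 to -2.17, detected-gene differences of -650 to -491 and RNA differences of -0.86 to -0.65. Reversed genes were Uqcrc2 (0.092) and Mxi1 (0.42) by medians, Jun (0.24), Egln3 (0.14) and Mxi1 (0.0044) by mean CPM, Ctgf with the outside lists (-0.11), Pbk (0.42), Nuf2 (0.91), Ndrg1 (-1.08), Fn1 (0.59), Plat (1.94), Mdm2 (0.35), Lin54 (0.53), E2f5 (0.66), Ccnd2 (0.11), Itga5 (-0.27), Mybbp1a (0.24), Nolc1 (0.39), Dkc1 (0.28), Gnl3 (0.63) and Cdc45 (0.15) within numbers 49 to 96, Plat without those 25% of cells (0.036) and Egln3 (0.34) and Gas2 (-1.18) with the 4 cells. The causes were not tested. No paired analysis was possible because there is 1 culture and no test. With 9 cells, a gene at 0 in a cell may be a missed transcript, and counting cannot show absence.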
